A study of Mus musculus with 7 samples.

Results

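The genes described here are 4 globin genes and 2 transcription factors of primitive red cells, namely Hba-x, Hbb-bh1, Hbb-y, Hba-a1, Klf1 and Tal1. They were chosen by name, and all 6 are among the 25965 genes of the RNA-seq table. The tissue was the tail end of E9.5 mouse embryos, cut about 1 somite length behind the last visible somite and frozen, named postsomitic mesoderm in the sample labels and presomitic mesoderm in the title of the series. Total RNA from 4 libraries of female FVB/N embryos that were Smchd1 MommeD1/MommeD1, a null genotype per the series text, was compared with that of 3 libraries of female FVB/N Smchd1 +/+ embryos. Smchd1 encodes a chromosomal protein best known for its role in X-chromosome inactivation. The comparison asked which genes differ without it. Whether each library came from 1 embryo is not given in the sources used here, so p-values here rest on the spread among libraries, which may be partly technical.

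At this stage the blood of a mouse embryo carries primitive erythroid cells, which arise in the yolk sac and enter the circulation with the onset of the heartbeat. They make embryonic hemoglobins from the alpha-like globin Hba-x and the beta-like globins Hbb-bh1 and Hbb-y, together with the adult alpha globins Hba-a1 and Hba-a2, and in mouse primitive cells Hbb-bh1 dominates early and Hbb-y later in maturation. Klf1 is an erythroid zinc finger factor that binds CACCC motifs of globin and other erythroid promoters. Tal1 is a basic helix-loop-helix factor needed for the formation of all blood cells and is also expressed in endothelium, and it acts in complexes with Gata1, a factor that binds GATA motifs.

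The promoters of 4 of these genes are shown because they carry the motifs of the factors measured beside them. Promoter entries, 250 bases before to 50 after a RefSeq start in GRCm38.p6, were matched by symbol for 5 of the 6 genes, with 2 entries for Tal1. Capitals mark every match, on either strand, to CACCC, the core of Klf1 sites, to GATAA, the core of Gata1 sites, to the CCAAT box and to the TATAA box, and no marked matches overlap. The windows are chr11:32276350-32276649 on the plus strand for Hba-x, chr7:103853158-103853457 on the minus strand for Hbb-y, chr11:32283422-32283721 on the plus strand for Hba-a1 and chr8:84901732-84902031 on the plus strand for Klf1.
Hba-x: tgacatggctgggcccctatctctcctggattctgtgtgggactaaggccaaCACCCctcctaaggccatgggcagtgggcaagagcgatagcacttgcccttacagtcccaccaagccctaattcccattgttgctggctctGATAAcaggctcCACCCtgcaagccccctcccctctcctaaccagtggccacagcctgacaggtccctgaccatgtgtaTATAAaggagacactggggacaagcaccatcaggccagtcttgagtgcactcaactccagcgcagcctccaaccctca
Hbb-y: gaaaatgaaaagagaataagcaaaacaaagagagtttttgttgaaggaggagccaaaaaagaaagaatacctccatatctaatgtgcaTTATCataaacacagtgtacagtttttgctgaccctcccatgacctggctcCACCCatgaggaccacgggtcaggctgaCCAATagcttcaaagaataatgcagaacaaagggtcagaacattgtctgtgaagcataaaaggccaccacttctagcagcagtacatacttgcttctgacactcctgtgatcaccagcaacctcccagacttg
Hba-a1: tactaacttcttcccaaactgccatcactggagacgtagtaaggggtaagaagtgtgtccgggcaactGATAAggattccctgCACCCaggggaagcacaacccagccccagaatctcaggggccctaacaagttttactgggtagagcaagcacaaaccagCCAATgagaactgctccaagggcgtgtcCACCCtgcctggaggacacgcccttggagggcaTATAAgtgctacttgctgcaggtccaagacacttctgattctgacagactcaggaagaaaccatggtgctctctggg
Klf1: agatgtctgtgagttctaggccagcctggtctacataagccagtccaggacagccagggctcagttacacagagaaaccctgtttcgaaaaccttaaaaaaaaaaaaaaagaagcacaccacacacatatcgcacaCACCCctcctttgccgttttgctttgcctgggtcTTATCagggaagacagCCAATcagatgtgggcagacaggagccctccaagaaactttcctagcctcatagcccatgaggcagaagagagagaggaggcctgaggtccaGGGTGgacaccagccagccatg

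Each of these 4 windows holds both a CACCC and a GATAA on one strand or the other, as does the first of the Tal1 windows, whereas the second Tal1 window holds none of the 4 motifs. Of 32851 promoter windows of the same length, 57.5% hold CACCC, 25.4% hold GATAA and 12.6% hold both. Because the 4 windows were picked for display by their motifs, their count cannot be set against these shares. Positions are counted from the RefSeq start, which in each of the 4 windows lies inside the interval given for the gene below. Some matches before the start therefore lie within that interval. In Hba-x, CACCC matches begin 198 and 95 bases before the start, GATAA 107 bases before it and TATAA 28 bases before it. In Hba-a1, CACCC begins 167 and 60 bases, GATAA 182 bases, CCAAT 88 bases and TATAA 27 bases before the start. In Hbb-y, CACCC begins 111 bases before the start and CCAAT 83 bases before it, with a GATAA on the opposite strand at 162 bases. In Klf1, CACCC begins 114 bases and CCAAT 64 bases before the start, with a GATAA on the opposite strand at 80 bases and a CACCC on the opposite strand inside the transcript. CCAAT and TATAA are held by 37.4% and 24.9% of all windows. These matches describe letters and were not tested as binding sites.

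The deposited values are log2 RPM, reads scaled to the size of the library, and listed genes held 22137823 to 23847381 reads in null libraries and 19622596 to 23548995 reads in wild-type libraries. Smchd1 had 1922 to 2372 reads in the null libraries, against 5572 to 6552 reads in the wild-type libraries, so the groups were apart as labelled. Reads in listed genes were 34.3% to 37.4% of the denominator of the values in null libraries and 28.8% to 37.9% in wild-type libraries, and the median difference of all 13997 genes tested was 0.16 log2, null over wild-type. Differences are therefore also given after subtracting the autosomal median of each library, which are called centred and have a median of -0.03 log2. Libraries are lettered within a group, because the columns of the table carry no sample number. Wild-type libraries B and C each stood apart. Both had a lower share of reads in listed genes than any other library, at 31.2% and 28.8%, and they also differed in single genes. The presomitic mesoderm genes Wnt3a and Cyp26a1 had 118 and 200 reads in wild-type B, against at least 1102 and 2033 reads in every other library. The yolk sac endoderm gene Afp had 1203 reads in wild-type C, against at most 85 reads in every other library. Results that rest on these libraries are given with and without them.

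Transcripts of the primitive erythroid globins and their regulators were present in every library, and their levels did not separate the genotypes. None of the 6 genes passed the test of null against wild-type tissue (limma with Benjamini-Hochberg adjustment over 13997 genes at 0.05), where 0.0429% of all genes passed as deposited and 0.0572% after centring. The smallest adjusted p among the 6 was 0.831 on the deposited scale and 0.457 after centring, and 0 of 6 had an unadjusted p below 0.05 on either scale. Of all genes, 13.9% had such a p and were higher in null tissue and 0.114% had one and were lower as deposited, against 7.29% and 6.71% after centring. No setting tried gave a call for any of them, limma-voom on the recovered reads included, and the smallest adjusted p over all settings was 0.187, for Klf1 without wild-type B. On the deposited scale every null library lay inside the range of the wild-type libraries for all 6 genes, as for 31.7% of all genes tested. Wild-type B was the lowest and wild-type C the highest of the 7 libraries for each of the 6, a pattern shared by 1.06% of all genes. After centring, null libraries lay inside the wild-type range for 3 of the 6, Hbb-bh1, Klf1 and Tal1, and for 12.0% of all genes. The wild-type libraries thus differed more among themselves than the 2 group means differed from each other.

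**Figure D1:**
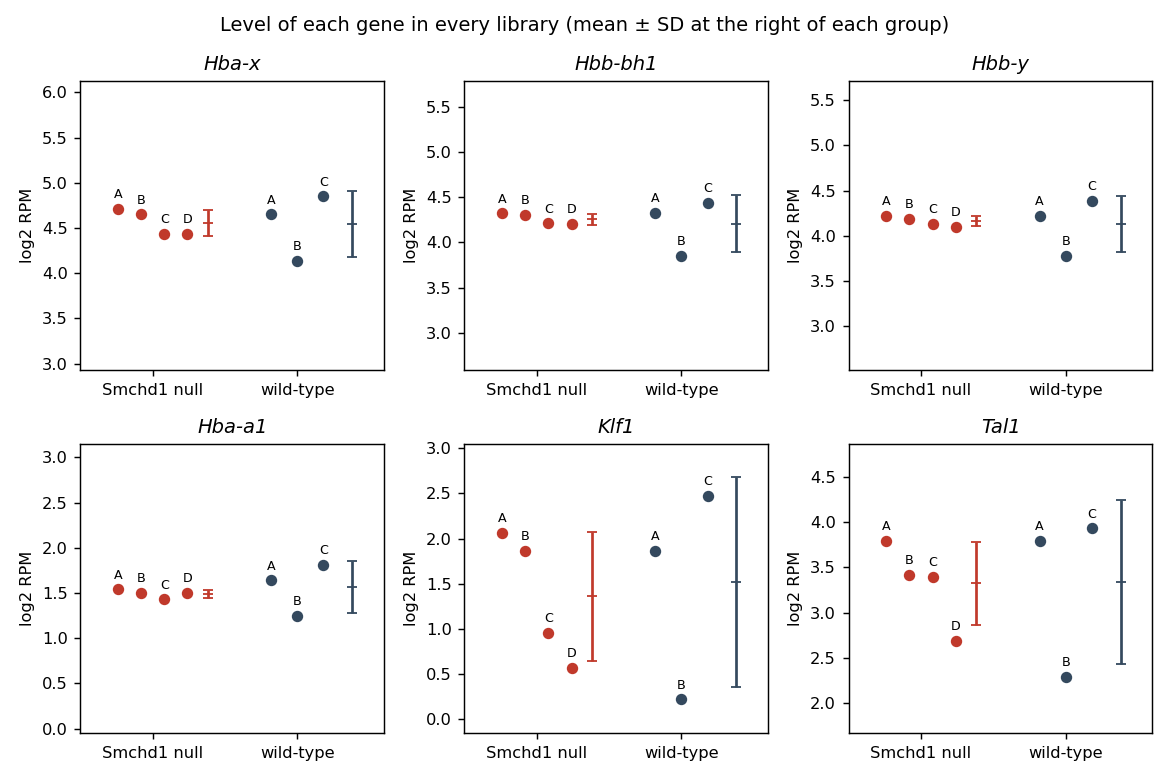
Level of the 6 genes in every library as log2 RPM (y axis, spanning the same number of log2 units in each panel), for Smchd1 null libraries A to D (red) and wild-type libraries A to C (blue), with mean ± SD at the right of each group. In each panel wild-type B is the lowest and wild-type C the highest point, and the null libraries lie between them.

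Hba-x encodes the embryonic zeta-like alpha globin chain and lies on chromosome 11 from 32276400 to 32278116 in mm10, plus strand. It had log2 values of 4.71, 4.65, 4.43 and 4.43 in null libraries A to D, against 4.65, 4.14 and 4.85 in wild-type libraries A to C. These values stand for 1276 to 1758 reads in null and 1151 to 1963 reads in wild-type libraries. The groups overlapped, with null C and D between wild-type B and A. The null libraries averaged 4.55 ± 0.15 (SD, n = 4), against 4.55 ± 0.37 (SD, n = 3) in the wild-type libraries, a difference of 0.01 log2 (SE 0.16, 95% interval -0.35 to 0.36, limma adjusted p = 0.978). After centring the difference was -0.18 (95% interval -0.62 to 0.25, limma adjusted p = 0.611). Because the tissue was measured in bulk, the number of erythroid cells and the RNA per erythroid cell cannot be told apart for any of these genes.

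Hbb-bh1, the beta-like globin of early primitive cells, lies on chromosome 7 from 103841636 to 103843164 on the minus strand. Its log2 values were 4.32, 4.30, 4.21 and 4.20 in the null libraries, against 4.33, 3.85 and 4.44 in the wild-type libraries, with 1098 to 1346 reads in null and 947 to 1485 in wild-type. All 4 null libraries lay below wild-type A and C and above wild-type B. The difference of the means was 0.05 log2 (SE 0.15, 95% interval -0.27 to 0.37, limma adjusted p = 0.843) and -0.14 after centring (95% interval -0.49 to 0.21, limma adjusted p = 0.626). Hbb-y, the epsilon-like chain that becomes more abundant as primitive cells mature, lies beside it from 103851745 to 103853240 on the same strand. Its log2 values were 4.22, 4.19, 4.13 and 4.10 in the null libraries, against 4.22, 3.78 and 4.39 in the wild-type libraries. All 4 null libraries lay above wild-type B and at or below wild-type A and C, as for Hbb-bh1. Hbb-y differed by 0.03 log2 (SE 0.15, 95% interval -0.30 to 0.36, limma adjusted p = 0.901), and by -0.16 after centring (95% interval -0.52 to 0.20, limma adjusted p = 0.593).

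Hba-a1, an adult alpha globin already transcribed in primitive cells, lies on chromosome 11 from 32283511 to 32284465, downstream of Hba-x in the same cluster. Its log2 values were 1.54, 1.50, 1.43 and 1.50 in the null libraries, against 1.64, 1.25 and 1.81 in the wild-type libraries. It had 159 to 195 reads in null and 156 to 240 reads in wild-type libraries. All 4 null libraries lay between wild-type B and A. The difference was -0.08 log2 (SE 0.22, 95% interval -0.55 to 0.39, limma adjusted p = 0.831), and -0.27 after centring (95% interval -0.69 to 0.15, limma adjusted p = 0.457). The level of Hba-a1 is uncertain because 439 of the 650 stretches of 50 bases in its transcript also occur in Hba-a2, and how reads shared by both were counted is not given in the sources used here. Of the same stretches in Hba-x, Hbb-bh1 and Hbb-y, 100% occur in no other globin transcript.

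Klf1, on chromosome 8 from 84901928 to 84905295 on the plus strand, varied more between libraries than Hba-x, Hbb-bh1, Hbb-y and Hba-a1. Its log2 values were 2.06, 1.86, 0.96 and 0.57 in null libraries A to D, against 1.86, 0.22 and 2.47 in wild-type libraries A to C. The reads were 280, 245, 115 and 95 in the null libraries, against 225, 76 and 379 in the wild-type libraries. Null C and D were low beside null A and B, and the highest and the lowest library were both wild-type. The null libraries averaged 1.36 ± 0.71 (SD, n = 4), against 1.52 ± 1.17 (SD, n = 3) in the wild-type libraries, a difference of -0.15 log2 (SE 0.47, 95% interval -1.17 to 0.87, limma adjusted p = 0.846). After centring it was -0.35 (95% interval -1.67 to 0.98, limma adjusted p = 0.763). The interval includes a level lower by 1 log2 unit in null tissue, so a change of that size is not excluded by these libraries.

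Tal1, on chromosome 4 from 115056426 to 115071755 on the plus strand, had log2 values of 3.79, 3.42, 3.39 and 2.69 in the null libraries, against 3.79, 2.29 and 3.93 in the wild-type libraries. Its reads ranged from 414 to 927 in null and from 320 to 1039 in wild-type libraries. Null D was the lowest of its group, as for Klf1, and the groups overlapped. The null libraries averaged 3.32 ± 0.46 (SD, n = 4), against 3.34 ± 0.91 (SD, n = 3) in the wild-type libraries, a difference of -0.01 log2 (SE 0.34, 95% interval -0.75 to 0.72, limma adjusted p = 0.983). After centring the difference was -0.21 (95% interval -1.14 to 0.73, limma adjusted p = 0.801).

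**Figure D2:**
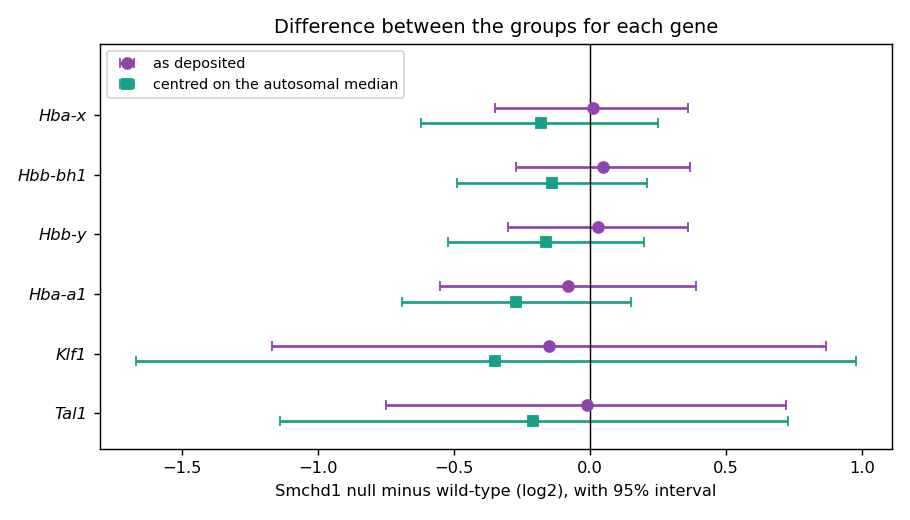
Difference of Smchd1 null minus wild-type means for the 6 genes (x axis, log2) as deposited (circles) and centred on the autosomal median of each library (squares), with 95% intervals from limma over 4 null and 3 wild-type libraries. Every interval includes 0, and those of Klf1 and Tal1 are the widest of the 6.

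The sign of these small differences depended on single libraries. Without wild-type B the difference of Klf1 was -0.80 log2 and without wild-type C it was 0.33, and for Tal1 the values were -0.54 and 0.28. For Hba-x they were -0.20 and 0.16, for Hbb-bh1 -0.13 and 0.17, for Hbb-y -0.15 and 0.16, and for Hba-a1 -0.24 and 0.04. The column names of null B and null C share a number at one place, which no fit used as a term. At the same place, those of null D, wild-type B and wild-type C share a number whose meaning is not given in the sources used here. Among those 3 libraries Klf1 differed by -0.78 log2 and Tal1 by -0.42, with 1 null library, and among the other 4, with 1 wild-type library, they differed by -0.23 and -0.26. The globin differences lay between -0.07 and 0.05 in the libraries with the shared number and between -0.15 and -0.04 in the others, all on the deposited scale. After centring, Klf1 differed by -1.15 and Tal1 by -0.79 in the libraries with the shared number and by -0.15 and -0.18 in the others. The centred globin differences lay between -0.44 and -0.32 in the libraries with the shared number and between -0.07 and 0.04 in the others. These values come from single libraries on one side and have no test.

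Within a library, the proportions among Hba-x, Hbb-bh1, Hbb-y and Hba-a1 varied little, whereas that of Klf1 to the summed globins varied more. The log2 ratio of Hbb-y to Hbb-bh1, which follows primitive maturation, was -0.11, -0.11, -0.08 and -0.10 in the null libraries, against -0.11, -0.08 and -0.05 in the wild-type libraries. The ratio of Hba-a1 to Hba-x was -3.06 ± 0.12 (SD, n = 4) in null libraries, against -2.98 ± 0.08 (SD, n = 3) in wild-type libraries. The alpha-like to beta-like ratio was -0.52 ± 0.09 in null and -0.51 ± 0.08 in wild-type tissue. Klf1 over the summed globins was -4.07, -4.23, -4.99 and -5.42 in null libraries A to D, against -4.25, -5.45 and -3.85 in wild-type libraries A to C. That ratio spanned more than 1 log2 unit within each genotype, and the groups overlapped. Tal1 over Klf1 was 1.96 ± 0.40 in null and 1.82 ± 0.32 in wild-type tissue. None of the 5 ratios passed an exact permutation test (two-sided, all 35 arrangements), with differences from -0.16 to 0.14 log2 and adjusted p from 0.714 to 0.886 over the 5 ratios. The smallest p this design allows is 0.0286 before adjustment, so no ratio could pass after it unless most of the 5 reached that p.

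All globin rows of the alpha and beta clusters together held 65.9 ± 3.99 RPM (SD, n = 4) in null libraries, against 66.7 ± 14.7 RPM (SD, n = 3) in wild-type libraries, a log2 difference of 0.01 (two-sided exact permutation p = 1.0). As a share of reads in listed genes they were 0.0184% ± 0.00187 in null and 0.0208% ± 0.00616 in wild-type tissue. Hba-x, Hbb-bh1 and Hbb-y gave 92.0% ± 1.55 of these globin reads in null and 90.6% ± 1.74 in wild-type libraries.

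Per length of transcript, in RPM per kilobase, the 6 genes ordered the same way in both genotypes. Hbb-bh1 stood at 31.3 ± 1.33 in null and 30.7 ± 6.25 in wild-type tissue, Hba-x at 29.4 ± 3.00 in null and 29.8 ± 7.12 in wild-type tissue, and Hbb-y at 28.3 ± 1.02 in null and 28.1 ± 5.85 in wild-type tissue. These 3 did not differ from their neighbours in the order beyond the SD of the wild-type libraries. Hba-a1 followed at 4.02 ± 0.128 in null and 4.30 ± 0.821 in wild-type tissue. Tal1 stood at 2.46 ± 0.714 in null and 2.69 ± 1.33 in wild-type tissue and Klf1 at 1.84 ± 0.848 in null and 2.25 ± 1.44 in wild-type tissue, and these last 2 overlapped within their SDs. In counted reads per length, the embryonic globins were therefore about an order of magnitude above Klf1 and Tal1. Tcf3, from the list of erythroid transcription factors, stood above these globins at 35.2 ± 2.4 in null and 34.5 ± 4.25 in wild-type tissue. Its centred values spanned only 0.36 log2 between libraries, against 2.98 for Gata1. Which cells of this bulk tissue gave the Tcf3 reads was not tested. Any effect of removing identical reads on the globin levels is unknown and was not tested. The distance from the embryonic globins to Hba-a1 depends on how reads shared with Hba-a2 were counted.

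The embryonic globins also stood out by how densely reads covered them. Hba-x had 1.92 reads per base of its transcript on average over the 7 libraries, Hbb-bh1 2.01 and Hbb-y 1.83. Of the 12614 tested genes with a transcript length, the median was 0.356 reads per base, and 1.4% had more than 2. The difference between the highest and the lowest library, on centred values, was 0.84 log2 for Hba-x, 0.67 for Hbb-bh1 and 0.70 for Hbb-y. It was 2.34 for Klf1 and 1.72 for Tal1, at 0.132 and 0.166 reads per base. Gata1 and the band 3 anion exchanger Slc4a1 had spans of 2.98 and 2.30, but many other erythroid genes were narrower. By list the median span was 2.30 for the red cell membrane and 1.10 for transcription factors. It was 0.81 for other erythroid genes, 0.62 for erythropoietin and Kit signalling, 0.48 for iron handling and 0.42 for heme synthesis. Across all genes the median span was 0.97 log2 below 0.1 reads per base, 0.39 between 0.1 and 0.5, and 0.27 above 1.5. It is unknown whether identical reads were removed before counting. The spans of Hba-x, Hbb-bh1 and Hbb-y were thus narrow only beside Klf1 and Tal1, and wider than the 0.27 median above 1.5 reads per base. The part of read density in the levels, shares, ratios and spans of the globins was not tested.

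**Figure D3:**
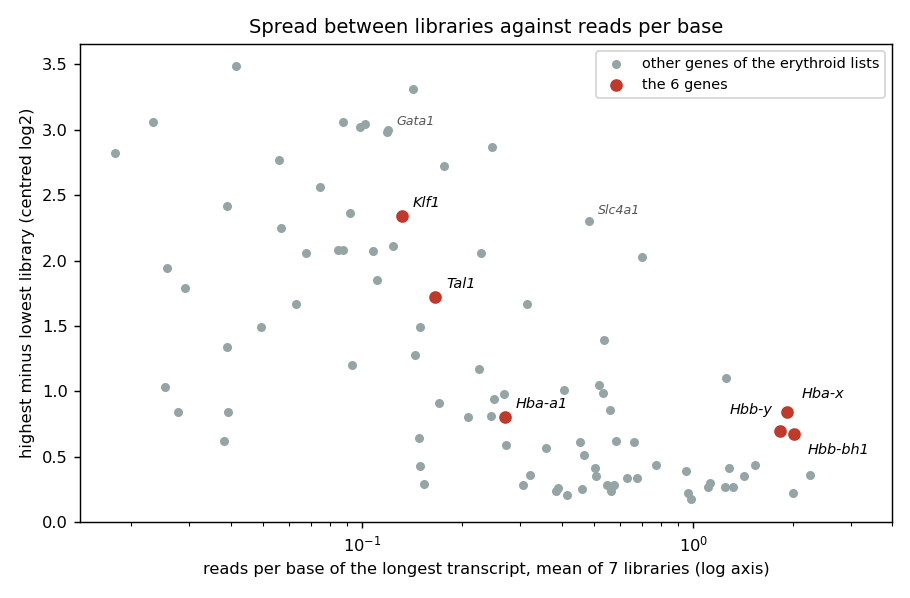
Spread between libraries, as the highest minus the lowest centred log2 value of 7 libraries (y axis), against reads per base of the longest transcript (x axis, log scale), for the 6 genes (red) and other genes of the erythroid lists (grey). Hba-x, Hbb-bh1 and Hbb-y sit near 2 reads per base with spans of 0.84, 0.67 and 0.70 log2, and Klf1 and Tal1 at 0.132 and 0.166 reads per base with spans of 2.34 and 1.72 log2.

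The adult beta globins followed another pattern across libraries than the embryonic ones. Hbb-b1 had log2 values of 0.50, 0.60, -0.72 and 1.21 in the null libraries, against -0.10, 0.97 and 1.59 in the wild-type libraries, and differed by -0.42 log2 (SE 0.46, limma adjusted p = 0.627; -0.62 after centring, adjusted p = 0.572). Its reads were 128 to 206 in the 3 libraries with the shared column number, against 36 to 102 in the other 4. Hbb-b2, which shares 381 of its 654 stretches of 50 bases with Hbb-b1, had 34 to 51 reads in those 3 libraries, against 0 to 12 in the other 4, and was too low to be tested. Hbb-b1 and Hbb-b2 together were 3.96%, 4.12%, 1.66% and 7.49% of the beta-cluster reads in null libraries A to D, against 2.58%, 8.08% and 8.07% in wild-type libraries A to C. Wild-type B, with the lowest Hbb-bh1, was thus among the libraries with the most Hbb-b1. The split by column number was seen in the data, holds 1 null and 2 wild-type libraries, and was not tested.

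**Figure D4:**
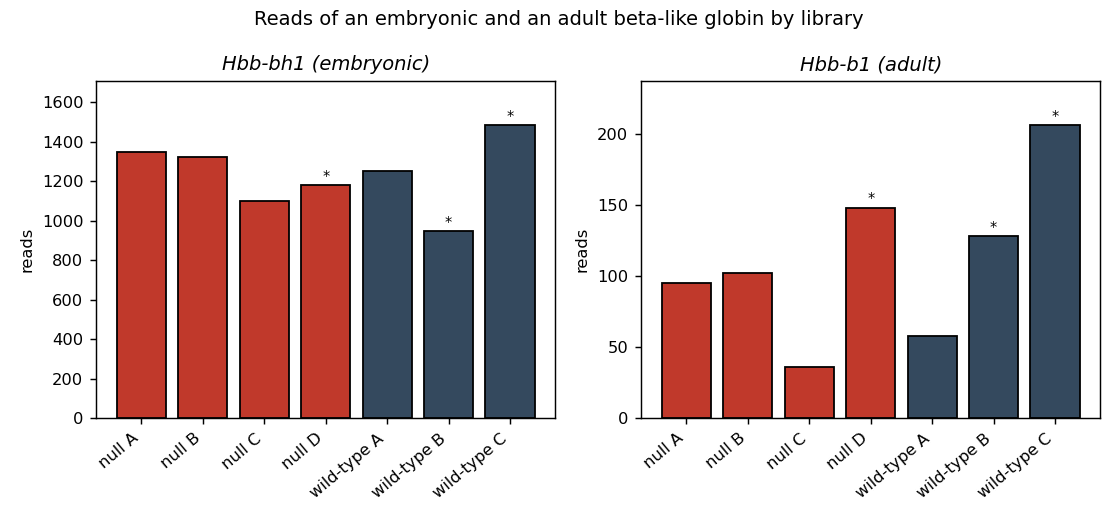
Reads of the embryonic beta-like globin Hbb-bh1 (left) and of the adult Hbb-b1 (right) in each library (y axes start at 0 and differ in scale), null libraries in red and wild-type libraries in blue; an asterisk marks the 3 libraries that share a number in the column name. Hbb-bh1 ranges from 947 to 1485 reads, and Hbb-b1 is at 128 or more reads only in the marked libraries.

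Of the other globin genes, Hba-a2 had 14 to 26 reads in null and 7 to 29 reads in wild-type libraries, Hbq1b, a theta-like globin, 13 to 36 in null and 9 to 44 in wild-type, and Hbb-bh2 0 to 4 in null and 0 to 13 in wild-type. Hbq1a had at most 3 reads in a null and 2 in a wild-type library. Outside the 2 clusters, the myoglobin gene Mb had 15 to 35 reads in null and 10 to 27 in wild-type libraries, and the neuroglobin gene Ngb had 7 to 17 in null and 7 to 9 in wild-type libraries. These 6 genes were below the filter for testing, and Hbb-b1 and the cytoglobin gene Cygb, with a difference of -0.07 log2 (SE 0.53, limma adjusted p = 0.934; -0.27 after centring, adjusted p = 0.805), were the only other globin genes above it.

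Genes of the same pathway did not pass the test either. Of 119 genes listed for globins, erythroid transcription factors, heme synthesis, iron handling, red cell membrane, erythropoietin and Kit signalling and other erythroid functions, 99 could be tested. None passed by limma on either scale. An unadjusted p below 0.05 by limma with a higher level in null tissue was found for 3 of the 99 as deposited and 0 after centring. Of all genes, 13.9% and 7.29% had one. With a lower level it was found for 0 of the 99 as deposited and 7 after centring, against 0.114% and 6.71% of all genes. The higher counts were thus below the share of all genes on both scales, and the lower counts were near it. The median difference of the 99 genes was 0.10 log2 against 0.16 for all genes, and -0.09 after centring against -0.03. Of the 99 differences 79 were above 0 as deposited and 27 after centring, against 12982 and 5952 of all 13997 genes. These counts were not tested. Wild-type C was the highest library for 66 of the 99 on centred values, against 11.1% of all genes, and wild-type B the lowest for 54, against 22.7% of all genes. Gata1 and Alas2, which mark erythroid cells and both lie on the X chromosome, were present in every library. They differed by 0.41 and 0.47 log2 (limma adjusted p = 0.669 and 0.531), and by 0.22 and 0.28 after centring (limma adjusted p = 0.871 and 0.752). Any part of their place on the X chromosome in these levels was not tested. Gata1 had log2 values of 2.26, 2.23, 1.26 and 1.21 in the null libraries, against 1.85, -0.39 and 2.51 in the wild-type libraries. Alas2, the erythroid enzyme of the first step of heme synthesis, had 1008 to 2027 reads in null and 503 to 2023 reads in wild-type libraries.

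By role, 0 of 21 tested transcription factors passed, with a median difference of 0.16 log2 (-0.03 after centring). The smallest p values belonged to Foxo3, a forkhead factor active in erythroid maturation, at 0.44 log2 (SE 0.19, limma adjusted p = 0.331), and to Lmo2, a partner of Tal1, at 0.46 (SE 0.22, adjusted p = 0.366). Of 12 heme synthesis genes 0 passed, with a median of 0.08 (-0.10 after centring), and Ppox and Alas1, both enzymes of the pathway, were at 0.27 and 0.19 (adjusted p = 0.417 and 0.486 by limma). Of 12 iron genes 0 passed, with a median of 0.11 (-0.08 after centring), and the iron exporter Slc40a1 and the heme oxygenase Hmox1 were at 0.68 and 0.33 (adjusted p = 0.424 and 0.446 by limma). Of 10 genes of erythropoietin and Kit signalling 0 passed, with a median of 0.18 (-0.01 after centring), and the kinase Jak2 and its target Stat5b were at 0.36 and 0.34 (adjusted p = 0.323 and 0.36 by limma). Of 17 tested other erythroid genes 0 passed, with a median of 0.17 (-0.02 after centring), and the glucose transporter Slc2a4 and the heme-binding protein Hebp1 were at 0.47 and 0.36 (adjusted p = 0.394 and 0.422 by limma).

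Of 19 tested genes of the red cell membrane and skeleton 0 passed, with a median of 0.04 log2 (-0.15 after centring). The smallest p belonged to Epb4.9, the dematin gene, at 0.52 (SE 0.21, limma adjusted p = 0.31), followed by Rhd, a Rhesus blood group gene, at 0.68 (SE 0.40, adjusted p = 0.449). This group showed how much a single library weighed. Without wild-type B, 7 of its genes were called lower in null tissue on the deposited scale, Ank1, Epb4.2, Kel, Rhag, Slc4a1, Spna1 and Spnb1, by -0.67 to -1.30 log2 with limma adjusted p from 0.000237 to 0.0304, and after centring none was. In that fit 0.336% of all genes were called lower. Without wild-type A, 7 genes of the other erythroid lists were called higher on the deposited scale, where 30.0% of all genes were, and none after centring. No globin, and neither Klf1 nor Tal1, was among these calls.

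**Figure D5:**
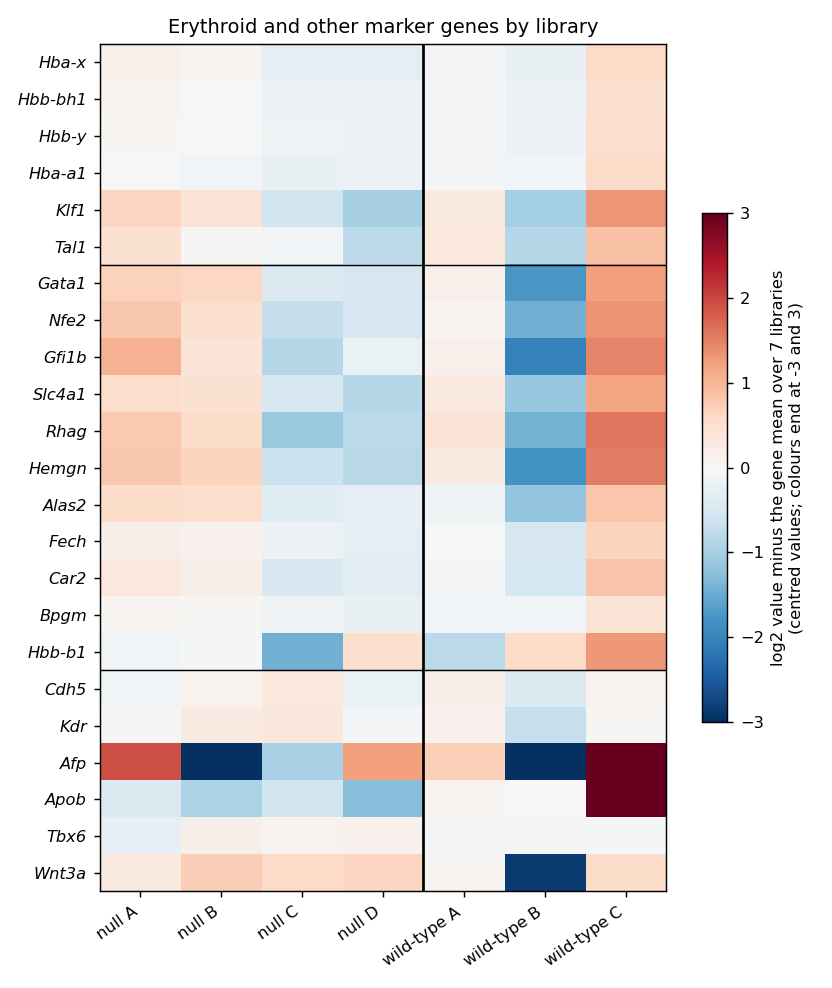
Centred log2 value minus the mean of the gene over 7 libraries (colour, ends at -3 and 3) for the 6 genes (top), other erythroid genes (middle) and markers of other cells (bottom), with null libraries left of wild-type libraries. Erythroid genes are high in wild-type C and mostly low in wild-type B, null C and null D, Hbb-b1 departs from them, Afp and Apob are high in wild-type C, and Wnt3a is low in wild-type B.

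Markers of other cells were also uneven between libraries, above all in wild-type B and C. Of 62 markers of endothelium, other blood cells, yolk sac endoderm and presomitic mesoderm, 40 could be tested and 0 passed by limma on either scale, with 9 at an unadjusted p below 0.05 as deposited, all higher in null tissue, and 3 after centring, 2 of them higher. All genes had such a p and a higher level in 13.9% of cases as deposited and 7.29% after centring. The summed level of the 12 yolk sac endoderm markers was 7.53, 7.52, 8.50 and 11.6 RPM in the null libraries, against 7.28, 4.29 and 52.9 RPM in the wild-type libraries. It was thus highest in wild-type C, where the globins and Klf1 were highest, and lowest in wild-type B, where they were lowest on the deposited scale. Only 1 of these 12 markers, Rbp4, could be tested, at 0.42 log2 (limma adjusted p = 0.54). The 14 presomitic mesoderm markers summed to 446 to 573 RPM in null and 342 to 506 RPM in wild-type libraries. The sum was lowest in wild-type B and next lowest in wild-type C, at 411 RPM. T and Fgf8, both markers of the tail bud, were at 0.76 and 0.87 log2 (adjusted p = 0.198 and 0.272 by limma). A term for the last number of the column names, whose meaning is not given in the sources used here, was also tried. On the deposited scale T, Fgf8, Wnt3a, Cyp26a1, Rspo3 and the endothelial Sox17 were then called higher, as were 4.99% of all genes. Their limma adjusted p ran from 4.34e-17 for Cyp26a1 to 0.0409 for Rspo3. Null A shared its last number only with wild-type B, the library low in Wnt3a and Cyp26a1. The fit with this term was not run without wild-type B. Without wild-type A, 11 markers were called higher on that scale, as were 30.0% of all genes, and after centring no marker was called in either fit. The 18 endothelial markers summed to 358 to 526 RPM in null and 225 to 465 RPM in wild-type libraries, again lowest in wild-type B, which was the lowest library for 17 of them on centred values, as for 22.7% of all genes. Sox17 and Kdr, an endothelial factor and a receptor, were at 0.73 and 0.50 (adjusted p = 0.267 and 0.327 by limma). The 18 markers of other blood cells summed to 106 to 118 RPM in null and 90.4 to 116 RPM in wild-type libraries, and Gp1bb, of platelets, and Laptm5, of white cells, were at 0.77 and 0.68 (adjusted p = 0.323 and 0.412 by limma). None of the 12 list sums, erythroid or not, passed the exact permutation test (two-sided), with adjusted p from 0.724 to 0.971. Its smallest possible p is 0.0286 before adjustment, so no sum could pass unless most of the 12 reached it. The test therefore could not show a change of single lists. The part of these other tissues in the levels of the globins, Klf1 and Tal1 was not tested.

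Among the 8 genes whose centred values most resembled the mean of Hba-x, Hbb-bh1 and Hbb-y over the 7 libraries were 1190007F08Rik (now named Smim1), Bpgm, Gm20412, Dhrs11, Cd59a, Car2 and Cpox. Pearson's r was 0.989 for 1190007F08Rik, the highest, and 0.962 for Cpox, the lowest of the 8. They include Bpgm, the red cell enzyme that makes bisphosphoglycerate, the carbonic anhydrase Car2 and Cpox, an enzyme of heme synthesis. For Klf1 the 3 most alike were Epb4.2, Spnb1 and Slc4a1, with r from 0.992 to 0.997, all components of the red cell membrane or its skeleton. For Tal1 they were Tmem56, Rab3il1 and Spns2, with r from 0.990 to 0.995. After leaving out the 2 libraries farthest from the median, r ranged from 0.858 for Cd59a to 0.996 for Cpox among the first 8, from 0.993 to 0.998 for Klf1 and from 0.974 to 0.994 for Tal1. These genes were picked for likeness, so no test is given, and all values of a library share its depth and its makeup of cells. By Spearman's rho 3 of the 8 were again among the nearest 8 and 1 of 3 for each regulator, and with deposited values 1 of 8 and all 3 of each regulator. Among the 6 genes themselves r was highest between Hbb-bh1 and Hbb-y at 0.997 and lowest between Hba-a1 and Tal1 at 0.701, and it was 0.955 between Klf1 and Tal1.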

How the data were processed

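RNA-seq values for 4 Smchd1 null and 3 wild-type libraries were analysed; the design text of the series names 3 samples per group. Values are log2 RPM as deposited by the authors, per the file headers. The submitters' processing notes name build mm10 and the tools edgeR, bcl2fastq and TopHat2 2.0.12; the counter, strand setting, annotation and treatment of identical reads were not given in the sources used here. Columns carry the genotype without a sample number and were assigned to groups only. Whole reads were recovered within 0.01 read for 100% of values below 1000 reads, with 0 reads listed as 0.9 read. A gene with no read is below 0.044 to 0.0507 RPM (3 reads), for counting error only.

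Genes above log2 0 in at least 3 libraries were tested with limma 3.58.1 in R 4.3.3 (trended prior, Benjamini-Hochberg over 13997 genes at 0.05), a step tested on simulated data. Ratios and sums were compared by two-sided exact permutation. Lengths came from GENCODE transcripts and promoters from RefSeq. Tables used Python 3.11.15 with pandas 2.3.3 and numpy 2.4.6, and figures matplotlib 3.10.9. The 6 genes and the lists were chosen with earlier results of these data known. Named were the 6 genes, every other globin gene, of each list genes past the threshold or else the 2 with the smallest p, and the 8 or 3 genes of most similar pattern with a mean log2 of at least 1; Smchd1, genes shown for libraries that stood apart and erythroid markers were added. Alternatives were centring, quantile and loess normalization, other filters and priors, a pseudocount of 1, voom on recovered reads and leaving out each library; terms for numbers in the column names and centred leave-one-out fits were chosen after seeing the data. A count model with another tool and its normalization, planned for raw counts, were not run. Some genes that these rules name are not reported here.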

Additional observations from a re-analysis of the deposited data

Results flagged for a closer look

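In the null group of 4 libraries, 2 of 30 values tested had 1 library far from the other 3, where chance gives about 1 in 20 groups. The theta-like globin Hbq1a was at a log2 value of -4.49 in null A, which is 3 reads, against 1 read in each of null B, C and D. The log2 summed RPM of the 18 markers of other blood cells was 6.88 in null C, against 6.72 to 6.74 in the other 3 null libraries. None of the 6 genes had such a library in the null group.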

How the results depend on the processing

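No call of any of the 6 genes was gained under any setting; what moved was the sign of differences near 0 and the count of all genes called. On centred values the differences were -0.18 log2 for Hba-x, -0.14 for Hbb-bh1 and -0.16 for Hbb-y (as deposited 0.01, 0.05 and 0.03), and the list sums turned to -0.19 for the 6 genes, -0.08 for transcription factors, -0.09 for heme synthesis, -0.10 for iron handling, -0.16 for the membrane list, -0.08 for other erythroid genes and -0.07 for other blood cell markers. Hba-x, Hbb-bh1 and Hbb-y were at -0.16, -0.14 and -0.16 with quantile normalization, -0.15, -0.12 and -0.14 with cyclic loess, -0.15, -0.11 and -0.12 with voom and median-ratio size factors, -0.06, -0.00 and -0.01 with a term for the number shared by 3 columns, -0.20, -0.14 and -0.15 with that term on centred values, and -0.16, -0.13 and -0.14 with a term for the last number of the column name on centred values. As a share of listed reads the summed globins differed by -0.14.

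The count of all genes called higher, 5 as deposited, was 15 with quantile normalization, 18 with cyclic loess, 12 with the stricter filter, 11 with the pseudocount, 2 without a trend and 52 with a robust prior. With the term for the last number it was 698, with 44 called lower in place of 1, and the erythroid and marker lists held 1 and 6 calls in place of 0. Of the genes most like the globins 3 were shared with Spearman's rho and 1 with deposited values, and 1 each for Klf1 and Tal1 with Spearman's rho.

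Leaving out 1 library at a time gave 1 to 4203 genes called higher (155 without null A, 4203 without wild-type A, 103 without wild-type B, 1 without wild-type C) and 1 to 47 called lower, but 3 to 9 and 1 on centred values. The lists held 0 to 7 erythroid and 0 to 11 marker calls. Differences ranged from -0.20 to 0.16 for Hba-x (centred -0.35 to 0.05), -0.13 to 0.17 for Hbb-bh1 (-0.28 to 0.06), -0.15 to 0.16 for Hbb-y (-0.29 to 0.05), -0.24 to 0.04 for Hba-a1 (-0.39 to -0.06), -0.80 to 0.33 for Klf1 (-0.95 to 0.22) and -0.54 to 0.28 for Tal1 (-0.69 to 0.17). They ranged from -0.18 to 0.15 for the summed globins, -0.05 to 0.03 for alpha over beta, -0.63 to 0.18 for Klf1 over globins and -0.04 to 0.27 for Tal1 over Klf1. List sums ranged from -0.24 to 0.17 for the 6 genes, -0.45 to 0.03 for other globins, -0.04 to 0.18 for heme synthesis, -0.22 to 0.18 for the membrane list, -0.01 to 0.18 for other erythroid genes and -1.18 to 0.63 for yolk sac markers. The cause of these shifts was not tested.

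No paired analysis was possible because the columns of the table carry none of the replicate numbers of the labels; the fits with terms for the other numbers in the column names are given above. Depth limits the low globins, since Hba-a2, Hbb-bh2, Hbq1a and Hbq1b had 44 reads or fewer in every library, and 3 wild-type libraries limit the rest.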

Other observations

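Another gene had the library pattern of the adult beta globins. Lyz2, a lysozyme gene of myeloid cells that was chosen after its values were seen, had 9 to 28 reads in null D, wild-type B and wild-type C, the 3 libraries that share a number in the column name, against 1 to 4 reads in the other 4 libraries. Hbb-b1 and Hbb-b2 were likewise highest in those 3, whereas Hbb-bh1 ranged from 947 to 1485 reads in them and from 1098 to 1346 in the other 4. What the number stands for, and any part of it in these levels, was not tested.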
